A study of Mus musculus with 16 samples.

Results

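The genes described here are 5 of the MHC class II system, Cd74, H2-Aa, H2-Ab1, H2-Eb1 and Ciita, out of 25791 gene symbols measured in glomeruli of diabetic mice. They were chosen by name, and all 5 passed the filter on low values that left 13286 genes for testing. Glomeruli, the filtering units of the kidney, had been loaded with iron by perfusion and pulled out of a single kidney with a magnet. RNA was sequenced from 7 RAAS-blocked and 9 untreated libraries, each taken to be a separate mouse. Every mouse carried the same genotype, eNOS-/-//db/db: it lacked endothelial nitric oxide synthase and carried 2 copies of db, the leptin receptor defect that makes mice obese and diabetic. The RAAS-blocked mice drank lisinopril, an inhibitor of angiotensin-converting enzyme (20 mg/day), together with losartan, a blocker of the angiotensin II type 1 receptor (30 mg/day). Treatment began at 10 to 12 weeks of age and lasted until 26 weeks. The labels name no strain background, and mice without diabetes were not analysed here.

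MHC class II molecules are pairs of an alpha and a beta chain that display peptides to CD4+ T cells. In mice H2-Aa and H2-Ab1 encode the alpha and beta chains of the I-A molecule, and H2-Eb1 encodes the beta chain of I-E. Cd74 encodes the invariant chain, which fills the peptide groove during assembly and guides the molecule to the compartment where peptides are loaded. Ciita is the transactivator of the whole set: it does not bind DNA itself but is recruited by factors sitting on the class II promoters. Dendritic cells, macrophages and B cells make class II without stimulation, and interferon-gamma can switch Ciita on in other cells, among them kidney endothelial and epithelial cells.

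Promoters of the classical class II genes share a short module through which these factors recruit Ciita, and it is shown here for members whose levels varied together between mice. Of the 5 members, 2 had an entry among the RefSeq promoters (build GRCm38.p6). The build the authors used is not stated. The 250 bases before the annotated start of H2-Aa lie at chr17:34287824-34288073 on the minus strand, and those of H2-Eb1 at chr17:34305617-34305866 on the plus strand. Capitals mark GCAAC, part of the X box read by the RFX complex, and CTGATTGG, the Y box read by NF-Y.
H2-Aa: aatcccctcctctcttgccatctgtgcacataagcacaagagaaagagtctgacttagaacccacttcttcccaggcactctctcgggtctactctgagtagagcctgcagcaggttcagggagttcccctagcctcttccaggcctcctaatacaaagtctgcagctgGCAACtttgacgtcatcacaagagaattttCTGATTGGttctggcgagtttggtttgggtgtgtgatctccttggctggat
H2-Eb1: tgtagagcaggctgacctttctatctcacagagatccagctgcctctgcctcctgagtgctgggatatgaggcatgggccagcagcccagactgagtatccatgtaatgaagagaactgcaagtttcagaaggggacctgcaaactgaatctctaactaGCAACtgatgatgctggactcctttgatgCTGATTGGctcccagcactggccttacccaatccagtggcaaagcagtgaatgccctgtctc
In H2-Aa the X motif begins 81 and the Y motif 51 bases before the start, and in H2-Eb1 they begin 91 and 62 bases before it. The starts of the motifs are therefore 30 bases apart in H2-Aa and 29 in H2-Eb1. These letters were chosen with both sequences in view and do not overlap each other. Searched on both strands in the 250 bases before 32851 annotated starts, GCAAC was in 29.9% of promoters and CTGATTGG in 3.83%. Both, on the same strand and with starts 20 to 40 bases apart in that order, were in 0.0852%. Of 5 other class II region genes with a RefSeq promoter, H2-Oa held the spaced pair, H2-DMa and H2-Ob held GCAAC without CTGATTGG, and H2-DMb1 and H2-DMb2 held neither. Across mice the H2-DM genes followed Cd74 and the chains closely, while H2-Oa was near-silent, as given further on. A match describes letters and does not show binding in these glomeruli. The search was for exact letters and passes over variants of either box, so a missing match does not show that the module is absent.

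Some libraries stood apart in other genes, picked out after the values were seen. RAAS_blocked replicate 4 had 16919 symbols above 0, against 17993 to 18613 in the other 15 libraries. Its Ren1, the renin gene that rises when angiotensin signalling is blocked, was at 33.5 FPKM, where the RAAS-blocked median was 1289 and the untreated median 46.3 FPKM. That value lies within the untreated range of 6.92 to 263 FPKM and goes against the label, so its drug exposure is in doubt. It was kept in its labelled group, and differences are also given without it. RAAS_blocked replicate 6 had Gbp2, an interferon-induced GTPase gene, at 1466 FPKM, against 5.54 to 59.7 FPKM in the other 15. Untreated replicate 3 had Csf1r, the macrophage growth factor receptor gene, at 150 FPKM, against 7.60 to 51.3 FPKM elsewhere. Nphs1, the podocyte gene for nephrin, lay between 181 and 470 FPKM in all libraries. Tubule genes were present as well and varied more. Umod of the thick ascending limb ran from 107 to 1168 FPKM and Slc34a1 of the proximal tubule from 2.59 to 241 FPKM. The values are FPKM, fragments scaled to transcript length and to the mapped fragments of the library, and levels of different genes can be compared on that scale. In bulk tissue fewer cells of a type and less RNA per cell cannot be told apart.

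Cd74 was by far the most abundant member. It was at 56.0 FPKM in the lowest, 459 FPKM in the median and 932 FPKM in the highest of the 7 RAAS-blocked libraries, and at 152, 265 and 1927 FPKM in the 9 untreated ones. Both extremes of all 16 libraries thus belonged to a pair of single mice, untreated replicate 3 at the top and RAAS_blocked replicate 4 at the bottom, 34.4-fold apart. Among the 13286 tested genes Cd74 ranked 8th by FPKM in untreated replicate 3 and 1379th in RAAS_blocked replicate 4. The other 6 RAAS-blocked libraries lay between 227 and 932 FPKM and the other 8 untreated ones between 152 and 444 FPKM. The full groups overlapped from 152 to 932 FPKM. Without that pair of extreme libraries, set aside after the values were seen, they overlapped from 227 to 444 FPKM. Of the remaining libraries, 4 untreated ones lay below that narrower range and 4 RAAS-blocked ones above it. Taking out the highest untreated and the lowest RAAS-blocked library can only move the groups apart in this direction.

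The I-A and I-E chains lay well below Cd74 and close to each other. H2-Aa had a lowest, median and highest value of 13.9, 133 and 237 FPKM in RAAS-blocked and of 39.4, 63.9 and 507 FPKM in untreated libraries. H2-Ab1, its beta partner, had 11.9, 131 and 230 FPKM in RAAS-blocked and 39.2, 64.5 and 453 FPKM in untreated libraries. H2-Eb1 had 10.0, 107 and 219 FPKM in RAAS-blocked and 29.0, 49.8 and 444 FPKM in untreated libraries. For all 3 chains the same libraries as for Cd74 were highest and lowest, 36.5-fold, 38.1-fold and 44.3-fold apart for H2-Aa, H2-Ab1 and H2-Eb1. The groups overlapped for each chain, and the untreated values apart from replicate 3 reached no higher than 118 FPKM (H2-Aa), 138 FPKM (H2-Ab1) and 97.7 FPKM (H2-Eb1), all in untreated replicate 7.

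Ciita was scarce, as is common for transcripts of regulators. Its lowest, median and highest values were 0.0248, 2.22 and 13.8 FPKM in RAAS-blocked and 0.524, 1.29 and 5.32 FPKM in untreated libraries. RAAS_blocked replicate 4 was again lowest, but the highest library was RAAS_blocked replicate 6, followed by untreated replicate 3. At such levels a single library's value is imprecise, and the depth behind it is unknown because the table holds no counts.

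**Figure D1:**
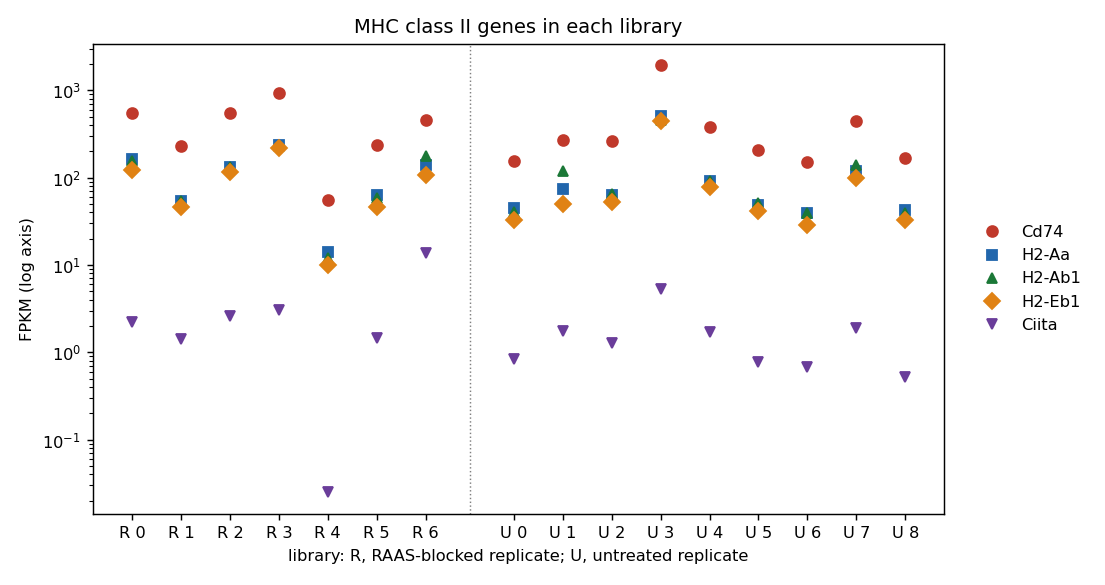
FPKM (log axis) of the 5 class II genes in each library, RAAS-blocked replicates (R) left and untreated replicates (U) right. Cd74 and the 3 chains rise and fall together, with R 4 lowest and U 3 highest; Ciita is highest in R 6, at 13.8 FPKM.

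No class II gene differed between RAAS-blocked and untreated glomeruli beyond the spread between mice. Cd74 averaged 430 ± 289 FPKM in RAAS-blocked and 441 ± 567 FPKM in untreated libraries (SD, n = 7 and n = 9). On the log2(FPKM + 1) scale its difference, RAAS-blocked minus untreated, was 0.13 ± 0.58 (SE), with a 95% interval of -1.09 to 1.35 and a limma adjusted p of 0.982. That interval reaches beyond 1 log2 unit on either side, so these values do not exclude a change of that size in either direction. The differences of the chains were 0.16 ± 0.58 for H2-Aa (limma adjusted p = 0.976), 0.08 ± 0.60 for H2-Ab1 (0.99) and 0.17 ± 0.61 for H2-Eb1 (0.976). Ciita averaged 3.51 ± 4.66 FPKM in RAAS-blocked and 1.64 ± 1.47 FPKM in untreated libraries, a difference of 0.46 ± 0.42 (limma adjusted p = 0.914). The exact two-sided permutation test of each member gave p-values from 0.342 (Ciita) to 0.911 (H2-Ab1). Of the 5 members 0 passed an adjusted p of 0.05, while 0.0151% of all tested genes did, 0.00753% higher and 0.00753% lower. Those were 2 genes: Mgat1, lower in RAAS-blocked libraries, and Rn18s, an 18S ribosomal RNA symbol listed at 0 in every untreated library and above 0 in every RAAS-blocked one. A difference in library handling or processing between the groups cannot be told apart from treatment. All 5 members had higher means on the log2 scale in RAAS-blocked libraries, with a median difference of 0.16, against -0.02 over all genes tested. Of the 13286 genes tested, 5944 had a higher mean there. At an unadjusted p under 0.05 limma called 0 of the 5 members, against 6.13% of all tested genes. With so few genes past the adjusted threshold, a count of 0 in the lists below says little about those lists.

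Means and medians of the groups stood apart. The ratio of the medians, RAAS-blocked over untreated, was 1.73 for Cd74, 2.08 for H2-Aa, 2.03 for H2-Ab1 and 2.15 for H2-Eb1. The ratio of the means was close to 1 for each of these genes, with 0.975 for Cd74 and 0.996 for H2-Eb1. Without untreated replicate 3 the Cd74 difference was 0.46 (limma adjusted p = 0.849), and without RAAS_blocked replicate 4, the library with untreated-like Ren1, it was 0.55 (limma adjusted p = 0.883). Leaving out RAAS_blocked replicate 6 brought the Ciita difference to 0.10 (limma adjusted p = 0.975). The spread within groups was the main feature of the set: with the group means removed, the SD on the log2 scale was 1.23 for Cd74 and H2-Aa, 1.28 for H2-Ab1, 1.30 for H2-Eb1 and 0.893 for Ciita. The median over all tested genes was 0.230, and all 5 members lay at percentile 96.4 or higher of these SDs.

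**Figure D2:**
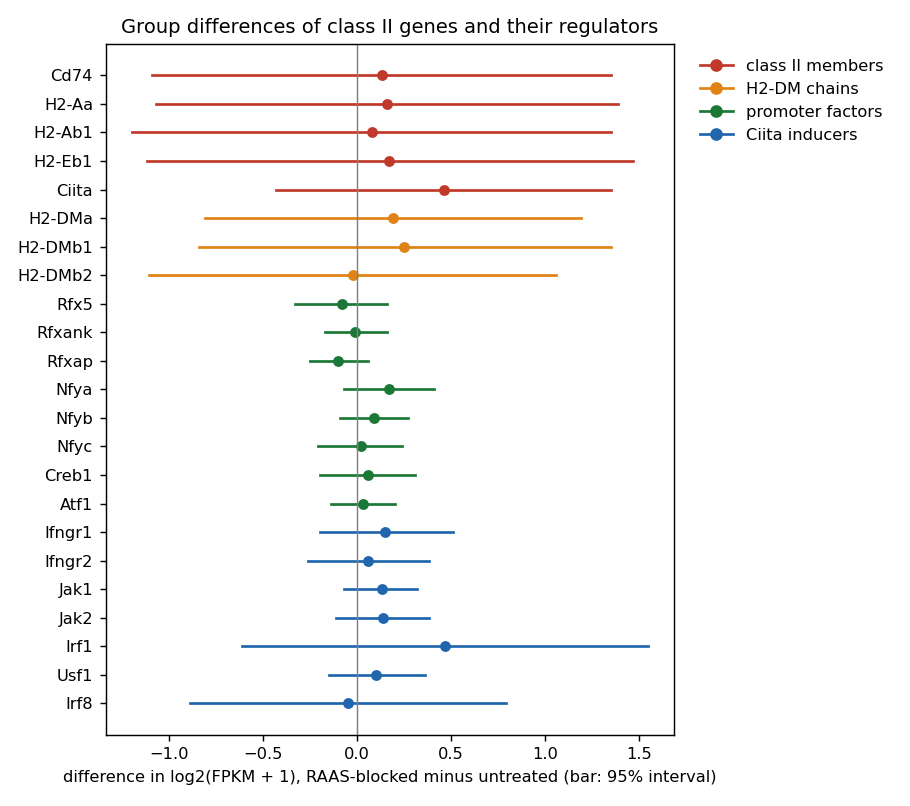
Differences in log2(FPKM + 1), RAAS-blocked minus untreated, with 95% limma intervals, for the 5 members, the H2-DM chains, the promoter factors and 7 of the 8 tested Ciita inducers. Every interval shown includes 0, and the intervals of the class II genes are far wider than those of the promoter factors.

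Between mice Cd74 and the 3 chains varied in near unison. Over all 16 libraries Cd74 and H2-Eb1 had a Pearson r of 0.999 and a Spearman rho of 0.994. For both, the two-sided permutation p was 1.0e-05, the smallest that 100000 resamples can give, and r was 0.999 within the RAAS-blocked and 0.999 within the untreated group. H2-Aa and H2-Ab1, the partners of I-A, had an r of 0.984 and a rho of 0.988, with 0.995 within the RAAS-blocked and 0.973 within the untreated group. Over the 6 pairs of Cd74 and the chains r ran from 0.974 to 0.999 and rho from 0.968 to 0.994 (permutation adjusted p = 1.7e-05 for each r, over 10 pairs). Without the pair of libraries farthest from the median, untreated replicate 3 and RAAS_blocked replicate 4, these r lay between 0.944 and 0.997. Pairs with H2-Ab1 were the looser ones.

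Ciita followed the genes it controls in rank, with a break in 1 library. Its rho with Cd74, H2-Aa, H2-Ab1 and H2-Eb1 was 0.944, 0.959, 0.971 and 0.929, each with a permutation p of 1.0e-05, the smallest possible. Its r was 0.760 with Cd74 (permutation adjusted p = 9.2e-04), 0.791 with H2-Aa (4.0e-04), 0.821 with H2-Ab1 (2.0e-04) and 0.773 with H2-Eb1 (6.6e-04). Without RAAS_blocked replicate 6 these r were 0.972 to 0.977, and without the pair farthest from the median 0.652 to 0.752. Within the untreated group they were 0.969 to 0.984, and within the RAAS-blocked group, which holds replicate 6, 0.682 to 0.786. Whether the groups differ in this relation was not tested.

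**Figure D3:**
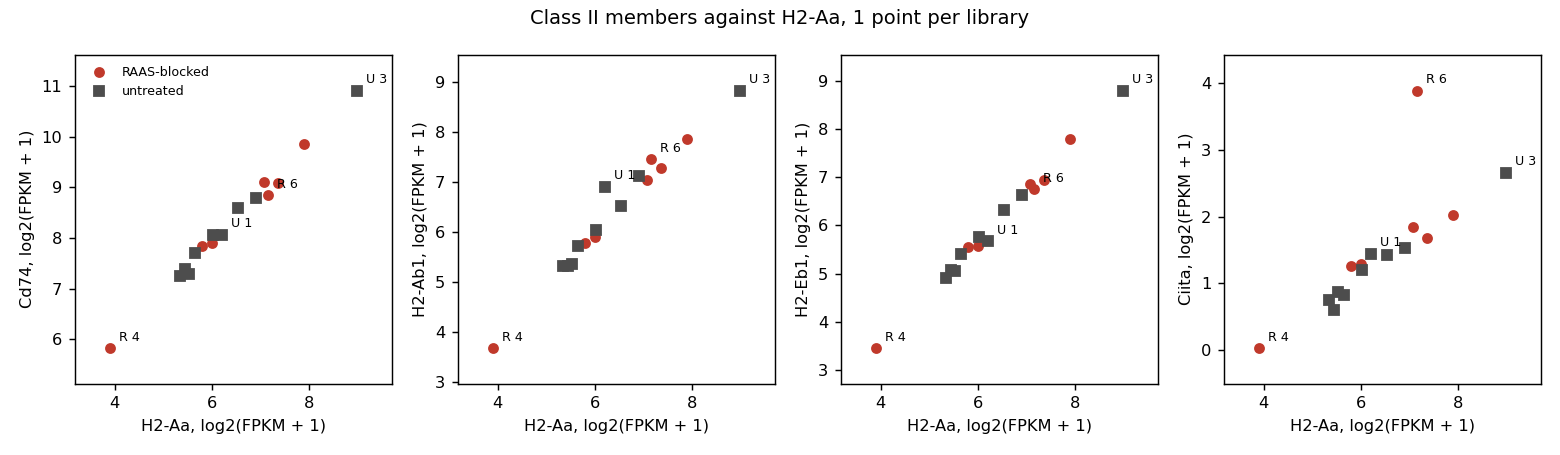
Cd74, H2-Ab1, H2-Eb1 and Ciita against H2-Aa, each as log2(FPKM + 1), with 1 point per library (circles RAAS-blocked, squares untreated). Cd74, H2-Ab1 and H2-Eb1 lie near a line, with H2-Ab1 above it in U 1 and R 6; Ciita lies near a line apart from R 6.

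Ratios between members show how fixed the proportions were. Per FPKM of H2-Aa there were 3.25 to 4.20 FPKM of Cd74 and 0.681 to 0.925 FPKM of H2-Eb1 in all 16 libraries, although H2-Aa itself varied 36.5-fold. H2-Ab1 stood at 0.988 of H2-Aa in the median library, and at 1.63 in untreated replicate 1, 1.24 in RAAS_blocked replicate 6 and 1.17 in untreated replicate 7. In the other 13 libraries it lay between 0.856 and 1.05, so partners of I-A were nearly equal in most mice. Ciita stood at 17.9 FPKM for each 1000 FPKM of H2-Aa in the median library. That ratio was 98.0 in RAAS_blocked replicate 6 and 1.78 in RAAS_blocked replicate 4, and between 10.5 and 25.9 in the other 14.

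The remaining genes of the class II region fell into expressed and near-silent ones. H2-DMa and the H2-DMb genes encode the alpha and beta chains of DM, which removes the invariant chain remnant from the groove and helps peptides bind. H2-DMa was at 20.9 ± 13.3 FPKM in RAAS-blocked and 18.3 ± 17.6 FPKM in untreated libraries (SD, n = 7 and n = 9; log2 difference 0.19 ± 0.47, limma adjusted p = 0.959). H2-DMb1 was at 11.2 ± 6.85 FPKM in RAAS-blocked and 9.70 ± 9.71 FPKM in untreated libraries, and H2-DMb2 at 8.27 ± 5.66 FPKM in RAAS-blocked and 7.97 ± 7.57 FPKM in untreated libraries. The H2-DMb genes are close neighbours in sequence, and reads could be split between them. H2-Oa and H2-Ob, the chains of the DM inhibitor DO that is made mainly in B cells, did not exceed 0.854 and 1.32 FPKM, and H2-Eb2 did not exceed 0.0505 FPKM. Of the 3 tested genes in this group 0 passed the test in either direction, with a median log2 difference of 0.19, against -0.02 over all genes tested.

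Genes of the factors that sit on class II promoters varied little between libraries. The RFX subunit genes were at 6.59 ± 1.93 FPKM (Rfx5), 3.24 ± 0.464 FPKM (Rfxank) and 6.25 ± 0.759 FPKM (Rfxap) in RAAS-blocked libraries. In untreated libraries they were at 6.88 ± 0.628 FPKM (Rfx5), 3.26 ± 0.347 FPKM (Rfxank) and 6.73 ± 0.638 FPKM (Rfxap). Nfya, Nfyb and Nfyc encode NF-Y, and Creb1 and Atf1 encode factors of the CREB family that bind the promoter module; each lay between 7.93 and 36.4 FPKM in all 16 libraries. Of these 8 promoter factors 0 passed the test, 5 had higher and 3 lower means in RAAS-blocked libraries, and the median log2 difference was 0.02. Their mean log2 level lay between 3.39 and 3.58 in RAAS-blocked and between 3.41 and 3.51 in untreated libraries. The mean of the 5 members ran from 3.38 to 7.08 in RAAS-blocked and from 4.72 to 8.04 in untreated libraries.

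Ciita is induced through the interferon-gamma receptor, the kinases Jak1 and Jak2, and factors that include Irf1 and Usf1. Transcripts of Ifng itself were listed at 0 in 12 of 16 libraries and reached 0.354 FPKM in RAAS_blocked replicate 6. The receptor genes were well expressed, with Ifngr1 at 76.4 ± 18.6 FPKM in RAAS-blocked and 68.1 ± 16.1 FPKM in untreated libraries and Ifngr2 at 30.8 ± 4.24 FPKM in RAAS-blocked and 30.3 ± 7.94 FPKM in untreated libraries. Irf1 was at 605 FPKM in RAAS_blocked replicate 6 and between 26.5 and 75.5 FPKM in the other 15 libraries. It is induced by interferons, and it was highest in the library with the highest Ciita. Jak1 (47.9 to 73.9 FPKM), Jak2 (12.7 to 24.6 FPKM) and Usf1 (22.7 to 49.3 FPKM) varied far less. Irf8, a myeloid and B cell factor, was at 66.2 FPKM there and at 5.62 to 28.1 FPKM elsewhere. Of 8 tested inducers 0 passed, 7 had higher and 1 lower means in RAAS-blocked libraries, and the median log2 difference was 0.13.

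Class II levels went with markers of myeloid leukocytes. Cd74 had an r of 0.86 and a rho of 0.84 with the mean log2 level of 16 macrophage genes (permutation adjusted p = 4.4e-04 for r and 0.00137 for rho, over 55 pairs of a member and a list). Its r was 0.91 within the RAAS-blocked and 0.89 within the untreated group, and 0.70 without the pair of libraries farthest from the median macrophage level. The 4 genes Cd74, H2-Aa, H2-Ab1 and H2-Eb1 had r of 0.76 to 0.87 with the macrophage level, 0.82 to 0.91 with the dendritic cell level and 0.70 to 0.78 with the pan-leukocyte level. For Ciita the r was 0.59 with the macrophage level (permutation adjusted p = 0.0762) and 0.82 without RAAS_blocked replicate 6. Its rho with that level was 0.78 (permutation adjusted p = 0.00299). With the dendritic cell level the Ciita r was 0.66 (permutation adjusted p = 0.0361), and with the pan-leukocyte level 0.59 (0.0585). With podocyte, endothelial, smooth muscle and mesangial, fibroblast, proximal tubule, thick ascending limb, parietal and neutrophil levels, 0 of the 40 relations passed, and for the 4 genes r lay between -0.19 and 0.41. With the proximal tubule level, a measure of tubule carried along in the preparation, r lay between 0.02 and 0.07.

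No gene of the macrophage and pan-leukocyte lists passed the group comparison, which 0.0151% of all tested genes did. Of 16 tested macrophage genes 0 passed. Means on the log2 scale were higher in RAAS-blocked libraries for all 16, and for 5944 of the 13286 genes tested. The macrophage genes had a median log2 difference of 0.43, against -0.02 over all genes tested. Their summed level ran from 394 to 1492 FPKM in RAAS-blocked and from 194 to 3385 FPKM in untreated libraries. C1qa, a complement gene of tissue macrophages, was at 65.6 ± 43.2 FPKM in RAAS-blocked and 74.9 ± 126 FPKM in untreated libraries, with 408 FPKM in untreated replicate 3. Of 6 pan-leukocyte genes 0 passed and the median log2 difference was 0.44, and Ptprc, which encodes CD45, ran from 5.29 to 31.3 FPKM in RAAS-blocked and from 2.43 to 41.0 FPKM in untreated libraries. With the macrophage level as a covariate, a setting in which the group difference is read at equal macrophage level, the Cd74 difference was -0.31 (limma adjusted p = 0.893), and the part of these cells in the class II levels was not tested further.

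Some defining markers of the other cells that make class II were low, while others reached several FPKM. Of 12 dendritic cell genes 6 passed the filter, and among these Zbtb46 (16.3 to 33.5 FPKM) and Dpp4 (84.2 to 232 FPKM) are also made by other kidney cells. Flt3, the receptor that defines dendritic cell precursors and their progeny, did not exceed 0.919 FPKM, and Xcr1 did not exceed 0.578 FPKM. Itgax, which encodes CD11c, ran from 0.656 to 10.8 FPKM in RAAS-blocked and from 1.44 to 10.8 FPKM in untreated libraries. The other genes past the filter were Batf3 (0.728 to 8.00 FPKM), Clec10a (0.545 to 5.91 FPKM) and Clec9a (0.660 to 3.01 FPKM). Batf3 and Clec10a were highest in untreated replicate 3, the library highest for Cd74 and the chains. Of the 6 tested genes 0 passed, with a median log2 difference of 0.06. Most B cell genes were low: Cd79a did not exceed 1.06 FPKM and Blk 2.25 FPKM. The 1 tested of 7, Cd79b, a chain of the B cell receptor complex, ran from 0.991 to 3.28 FPKM in RAAS-blocked and from 0.369 to 7.10 FPKM in untreated libraries. Its highest value was in untreated replicate 3, the library highest for Cd74 and the chains, and its part in the class II levels was not tested. The T cell gene Cd3e did not exceed 0.803 FPKM. Summed levels were 111 to 268 FPKM in RAAS-blocked and 131 to 255 FPKM in untreated libraries for the dendritic cell list, and 1.66 to 5.87 FPKM in RAAS-blocked and 1.22 to 9.95 FPKM in untreated libraries for the B cell list.

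The remaining marker lists are given as the setting of these values, each with 0 genes past the adjusted threshold in either direction. At an unadjusted p under 0.05 limma called 3 of 5 fibroblast, 2 of 8 mesangial and smooth muscle and 1 of 10 endothelial genes. It called 0 in the other lists given here, and 6.13% of all tested genes. Col3a1 of the fibroblast list had a log2 difference of 1.12 ± 0.24. The median log2 difference was 0.91 over 3 neutrophil genes, 0.63 over 5 fibroblast genes and 0.45 over 8 mesangial and smooth muscle genes. It was -0.22 over 10 endothelial, -0.18 over 9 podocyte, -0.02 over 10 proximal tubule, -0.06 over 4 thick ascending limb and -0.02 over 5 parietal genes. The 1 tested B cell gene had 0.12 and the 1 tested T cell gene -0.19.

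Genes of antigen processing and of co-stimulation gave a mixed picture. Ctss, the protease cathepsin S that degrades the invariant chain, was at 90.5 ± 54.0 FPKM in RAAS-blocked and 90.0 ± 122 FPKM in untreated libraries and reached 410 FPKM in untreated replicate 3. March8, a ubiquitin ligase that can remove class II from the cell surface, had the lowest p of the processing list, at 25.1 ± 1.47 FPKM in RAAS-blocked and 28.0 ± 3.84 FPKM in untreated libraries (log2 difference -0.14 ± 0.08, limma adjusted p = 0.83). March1, the ligase of resting dendritic and B cells, was at 1.94 ± 1.33 FPKM in RAAS-blocked and 1.73 ± 2.12 FPKM in untreated libraries. Ctss and March1 were chosen after their values were seen. Of 11 processing genes 0 passed, 3 had higher and 8 lower means, and the median log2 difference was -0.03. Cd86, a co-stimulatory ligand of antigen-presenting cells, was at 18.6 FPKM in untreated replicate 3 and at 0.541 to 6.12 FPKM in the other 15 libraries. Of 4 tested co-stimulation genes 0 passed, with a median log2 difference of 0.19.

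**Figure D4:**
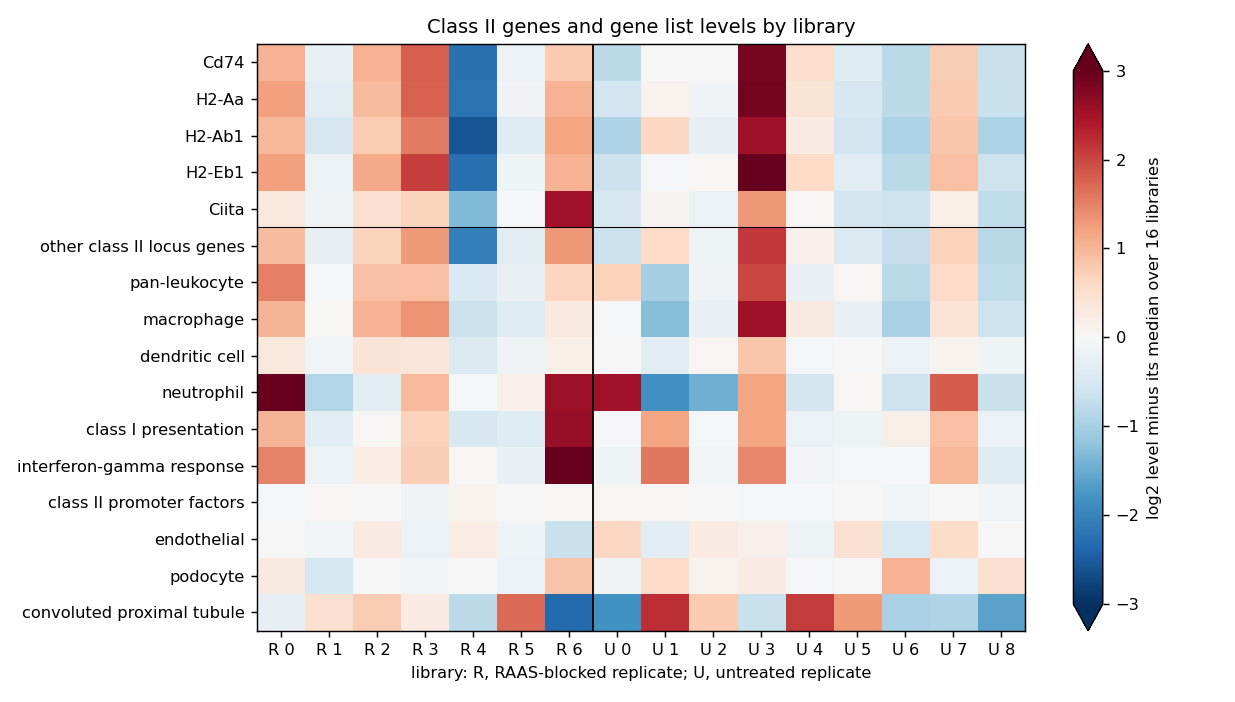
Log2 level of each class II gene and each gene list, minus its own median over 16 libraries, with RAAS-blocked replicates (R) left and untreated replicates (U) right. U 3 is high for class II and macrophage genes, R 6 for Ciita, class I and interferon-gamma genes, and R 4 is low for all 5 class II genes; the promoter factors hardly vary.

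Genes induced by interferon-gamma had a higher r with Ciita than with Cd74 over all 16 libraries. The mean log2 level of 9 such genes had an r of 0.85 with Ciita (permutation adjusted p = 0.00105, over 10 relations chosen after the values were seen) and a rho of 0.68 (0.0105). With Cd74 the r was 0.39 (permutation adjusted p = 0.137) and the rho 0.61 (0.016). Without RAAS_blocked replicate 6 and untreated replicate 1, the pair farthest from the median, the r was 0.70 for Ciita and 0.73 for Cd74. Within the groups Ciita had 0.86 in RAAS-blocked and 0.77 in untreated libraries, and Cd74 had 0.32 in RAAS-blocked and 0.67 in untreated libraries. Without RAAS_blocked replicate 6 alone the r was 0.64 for Ciita and 0.62 for Cd74, so the gap between the 2 genes rested on that library; it was not tested as a difference. In that replicate Cxcl9, a chemokine gene induced by interferon-gamma, was at 157 FPKM, where the other 15 libraries had at most 1.82 FPKM, and Socs1, a feedback inhibitor of the pathway, was at 76.3 FPKM against at most 4.36 FPKM. Cd74 in the same library was at 459 FPKM, 5th of 16.

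Class I genes, which present peptides to CD8+ T cells and whose transactivator is Nlrc5, also went with class II. The level of 12 class I presentation genes had an r of 0.56 with Cd74, 0.62 with H2-Aa, 0.70 with H2-Ab1, 0.58 with H2-Eb1 and 0.85 with Ciita. In that order the permutation adjusted p were 0.0456, 0.0309, 0.0093, 0.0444 and 0.00105. These relations too were chosen after the values were seen, which the adjustment does not cover. The rho were 0.63, 0.67, 0.74, 0.62 and 0.71 in the same order. H2-K1, a class I heavy chain gene, was at 229 ± 146 FPKM in RAAS-blocked and 229 ± 127 FPKM in untreated libraries. Nlrc5 was at 41.5 FPKM in RAAS_blocked replicate 6 and at 1.13 to 9.85 FPKM in the others. Of the 12 genes 0 passed the group comparison and the median log2 difference was 0.16. Of the 9 tested interferon-gamma genes 0 passed, with a median log2 difference of 0.72. All 9 had higher means in RAAS-blocked libraries, as did 5944 of the 13286 genes tested. RAAS_blocked replicate 6 was the highest library for that list, at a mean log2 level of 8.60, against 2.61 to 4.60 in the other 15.

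**Figure D5:**
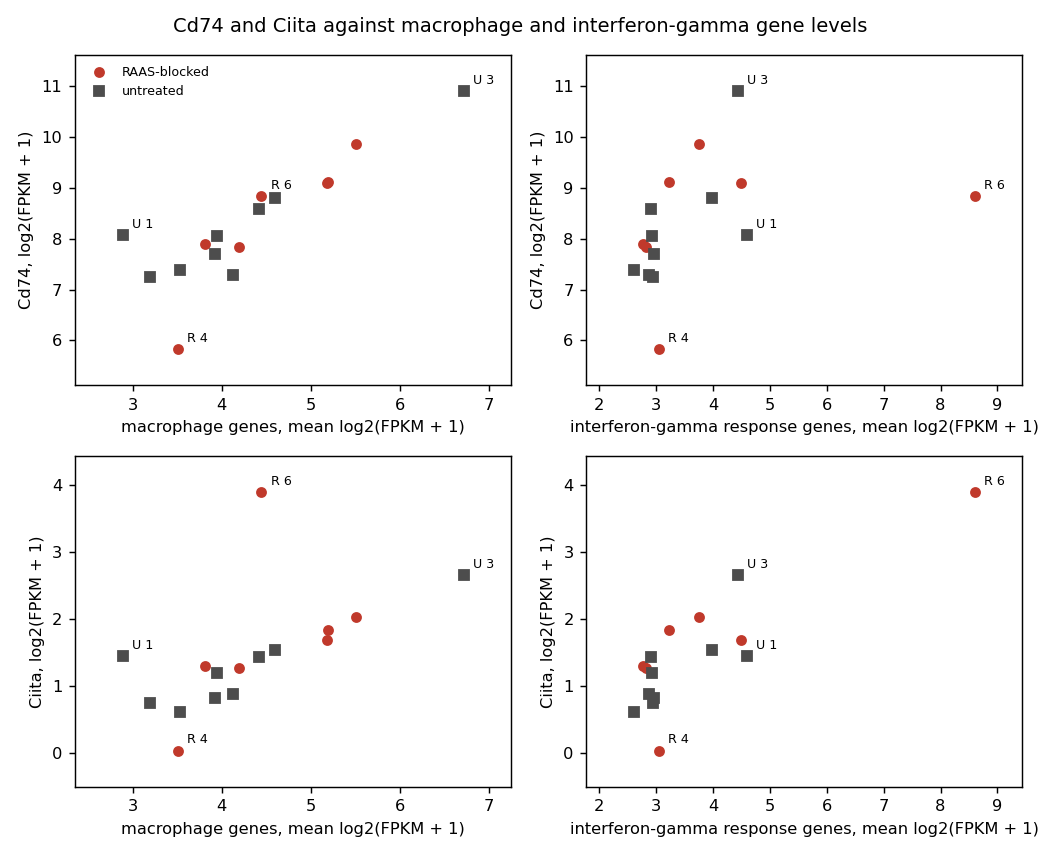
Cd74 and Ciita, as log2(FPKM + 1), against the mean log2 level of 16 macrophage genes (left) and of 9 interferon-gamma response genes (right), with 1 point per library (circles RAAS-blocked, squares untreated). Cd74 follows the macrophage level apart from U 1 and R 4; in R 6 both Ciita and the interferon-gamma level are at their highest.

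Outside the 5 members, the genes most like Cd74 and the 3 chains across mice were again of class II. With group means removed, the mean Pearson r with these 4 genes over 16 libraries was 0.972 for H2-DMb1, 0.971 for H2-DMb2 and 0.956 for H2-DMa. AW112010 came next at 0.945, with 1.79 to 30.2 FPKM in RAAS-blocked and 1.85 to 62.6 FPKM in untreated libraries. Then came Rpl23a, a ribosomal protein gene (0.933), and Epsti1, an interferon-induced gene (0.926). Ptpn6, the phosphatase SHP-1 of blood cells, followed at 0.919, with Stap1 at 0.918, Cd72, a B cell and myeloid surface protein gene, at 0.915, and Dnase2a, a lysosomal nuclease gene, at 0.914. Ms4a6b (0.914) and Rps29, another ribosomal protein gene (0.913), closed the 12. These values describe 16 libraries that share 1 high and 1 low extreme. Without untreated replicate 3, the high extreme, the mean r of the 12 ran from 0.866 to 0.968. The low extreme, RAAS_blocked replicate 4, was still included there.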

How the data were processed

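The authors deposited FPKM values, normalized for transcript length and library size, with 1 column per library. Tools listed in the submitters' processing notes are TopHat2 2.0.8, Cuffdiff 2.2.1, Cufflinks, CASAVA 1.8.2 and FastQC, without roles. Build, annotation and strand setting: not given in the sources used here. Hence reads of overlapping or near-identical genes may be shared. The file holds no counts, and depth is unknown. From these values log2(FPKM + 1) was computed. The 13286 of 25791 symbols that reached 1 FPKM in 7 or more libraries were fitted with limma 3.58.1 in R 4.3.3, with group as the only term, a mean trend and robust moderation, and p-values were adjusted by Benjamini-Hochberg over all of them at 0.05. A fold on this scale understates changes of low genes. Labels do not say sample by sample that libraries are separate mice, so p-values measure the spread between libraries.

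Correlations across libraries have two-sided permutation p-values from 100000 resamples, adjusted over 10 member pairs, over 55 pairs of a member and a marker list, and over 10 pairs of a member with the interferon-gamma and class I lists. A list level is the mean log2(FPKM + 1) of its tested genes. Members and lists were chosen with earlier results of these data known. Named genes are the members, all class II region, promoter factor and inducer genes, the 3 genes of lowest p per list (given where they bear on class II), defining markers and the 12 genes most like Cd74 and the chains, leaving out predicted and small RNA symbols. Of these, genes of tubule, podocyte, vessel, fibroblast and other leukocyte lists are mostly given by list. Gbp2, Cxcl9, Socs1, H2-K1, Ctss, March1, Xcr1, Dpp4, Clec9a and Csf1r's library values were picked out after the values were seen. Alternatives covered pseudocount, filter, scaling, variance model, weights, replicate block, covariates, an exact permutation test and leaving out each library. The fit and the correlation test were tested on simulated data. Some genes of these lists are not reported here.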

Additional observations from a re-analysis of the deposited data

Results flagged for a closer look

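Single libraries lay far from the rest of their group for every member. Checks were made for the highest and lowest library of each group on the FPKM and log2 scales. Of these, 10 of 40 were past the 95% limit of Dixon's test. That limit assumes normal values, which FPKM need not be, and each end was checked separately, so no chance rate is given for the count. The gap to the nearest library took 0.835 of the untreated range for Cd74 in untreated replicate 3 on the FPKM scale and 0.578 on the log2 scale. For H2-Aa in that library it took 0.831 on the FPKM and 0.572 on the log2 scale, and for H2-Eb1 0.834 on the FPKM and 0.558 on the log2 scale. H2-Ab1 was past the limit there on the FPKM scale alone, at 0.762. Ciita in untreated replicate 3 took 0.715 of the range on the FPKM and 0.550 on the log2 scale. In RAAS_blocked replicate 6 Ciita took 0.780 of the RAAS-blocked range on the FPKM scale. The 5 genes are not independent, so the untreated flags amount to 1 library.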

How the results depend on the processing

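All 144 alternative values of the 5 group differences stayed short of an adjusted p of 0.05, and all 220 alternative values of the 10 pair correlations stayed past it. Leaving out each library in turn, the log2 difference ranged from -0.13 to 0.55 for Cd74, from -0.08 to 0.59 for H2-Aa, from -0.16 to 0.53 for H2-Ab1, from -0.10 to 0.62 for H2-Eb1 and from 0.10 to 0.74 for Ciita. H2-Ab1 changed sign in 8 of these 16 fits and Cd74 in 2. The lowest came without RAAS_blocked replicate 3 (Ciita: replicate 6) and the highest without RAAS_blocked replicate 4. With the macrophage level as a covariate the direction turned, to -0.31 (Cd74), -0.27 (H2-Aa), -0.33 (H2-Ab1) and -0.30 (H2-Eb1); the cause was not tested. Without untreated replicate 3 and RAAS_blocked replicates 4 and 6, chosen after seeing the data, the Cd74 difference was 0.87 (limma adjusted p = 0.497), a setting that takes out the highest untreated and the lowest RAAS-blocked mouse. Ciita was not tested at the filter of 5 FPKM.

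Over all genes the fit called 1 higher and 1 lower. Higher calls were 2 without a filter, 5 with array weights, 5 without the 3 libraries and 1 to 3 leaving out 1 library. Lower calls were 6 with array weights, 3 without the 3 libraries, 0 to 3 leaving out 1 library, and 0 with upper-quartile scaling, quantile normalization, no mean trend, either covariate or the replicate block. Replicate numbers did not pair the libraries: same-numbered deviations correlated between -0.28 and 0.43, over 0.1 in 4 of 7 pairs, and 1 of 7 RAAS-blocked libraries matched its own number best. With the replicate block the Cd74 difference was 0.09. Depth is unknown.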

Other observations

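Macrophage and interferon-gamma levels were set beside the class II genes together, as a description chosen after the values were seen. A linear fit on the macrophage level alone accounted for 74.0% of the variance of Cd74 over 16 libraries, the interferon-gamma level alone for 15.4%, and both for 77.8%. For H2-Ab1 the shares were 57.9%, 27.6% and 70.7%, and for Ciita 34.5%, 71.6% and 87.6%. Without RAAS_blocked replicate 6 the shares were 74.5%, 38.2% and 81.2% for Cd74 and 66.8%, 41.0% and 76.2% for Ciita. For H2-Ab1 the interferon-gamma level alone then accounted for 52.0% and both levels for 77.5%. Leaving out that library thus raised the interferon-gamma share of Cd74 and H2-Ab1 and lowered that of Ciita. Over the 16 libraries the macrophage and interferon-gamma levels had an r of 0.23 (permutation p = 0.35) and a rho of 0.38 (permutation p = 0.151).

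Untreated replicate 1 had the lowest macrophage level of all (2.89) and the second highest interferon-gamma level (4.60). Its Cd74, at 267 FPKM, was 8th of 16, and it had the highest ratio of H2-Ab1 to H2-Aa, 1.63. RAAS_blocked replicate 6 had the next highest ratio.

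The genes most like Ciita with group means removed were Bst2 (r = 0.930 over 16 libraries), Rpsa (0.927), Zbp1 (0.925) and Psme1 (0.916). Over the 15 libraries other than RAAS_blocked replicate 6 they were H2-DMb1 (0.979), H2-DMa (0.977), H2-DMb2 (0.969) and Dnase2a (0.962). No p is given for values picked as the highest of all genes.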
